A study of Mus musculus with 8 samples.

Results

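Vmac, Caprin2, Cdkn2aip, Nabp1 and Slc20a1 are 5 mouse genes, none of them an osmolyte transporter or osmolyte enzyme gene, that stood higher in nuclear RNA of NIH3T3 cells under osmotic stress than in untreated cells. They were picked by name because their values were higher under osmotic stress in both deposited tables, so these values describe the genes and are given with no test. The 5 rows were taken from 48676 rows in each table. All 5 were among the 16056 rows that reached 0.5 RPKM (reads scaled to gene length and to mapped reads) in at least 2 of the 8 libraries. That level was reached through all 4 groups for each gene, not through osmotic stress alone. NIH3T3 is a line of mouse embryonic fibroblasts. Cells were kept for 2 h in medium with 200 mM KCl (osmotic stress), at 44 °C (heat shock) or with 0.2 mM H2O2 (oxidative stress), or were left untreated, with 2 libraries in each of the 4 groups. All 4 groups share the same cell line and the same preparation of nuclei through a sucrose cushion, removal of ribosomal RNA and strand-specific sequencing. The study's title concerns transcription that runs past gene ends under stress.

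Each table held 1 library of each group, and nothing in the labels shows separate cultures behind the replicates. The p-values below therefore cover only the spread between libraries, which may be technical. RPKM values summed to between 503400 and 771700 per library, except for osmotic stress replicate 1 with 1943000, where a single row, AC113316.1, held 1025000 RPKM. Malat1, a nuclear non-coding RNA, had 0 RPKM there and 1844 to 2332 RPKM in the other 7 libraries. Across the tested rows the replicates of a group correlated with r = 0.926 for osmotic stress, 0.969 for heat shock, 0.956 for oxidative stress and 0.966 for untreated cells, a correlation across genes, which are not independent replicates. None of 10 fibroblast markers was at 0 in any library. Their summed level ranged from 4094 to 8801 RPKM and came mostly from S100a4 at 2467 to 6453 RPKM. Thy1 and Pdgfrb were low, at 0.732 to 2.05 and 0.298 to 1.11 RPKM. Of 14 markers of other cell types 2 to 6 were at 0 in a library, Krt5 in all 8, and their sum of 11.4 to 33.8 RPKM came mostly from Cd68 at 8.39 to 28.6 RPKM. In bulk RNA, fewer cells with a transcript and less transcript per cell cannot be told apart.

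Cells in hypertonic medium lose water and shrink, and the transcription factor NFAT5 binds tonicity elements (TonE) and raises genes that import or make organic osmolytes. The genes described here act elsewhere. Vmac encodes a coiled-coil protein named for its association with vimentin-type intermediate filaments. Caprin2 belongs to the caprin family of RNA-binding proteins, whose better known member Caprin1 is a stress granule protein. Cdkn2aip encodes CARF, which binds the tumour suppressor ARF and p53 and also the nuclear exonuclease XRN2. Nabp1 encodes a single-stranded DNA-binding protein that joins the SOSS complex of the DNA damage response with INTS3 and INIP. Slc20a1 encodes PiT1, a sodium-dependent phosphate importer of the plasma membrane.

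The 250 bases before the RefSeq start of each gene are shown so that a reader can compare what lies before the starts of genes that were all higher under osmotic stress, a pattern they were chosen for. The sequences are those of RefSeq on GRCm38.p6, and all 5 genes matched. Vmac and Slc20a1 have 2 starts in the table, and the outermost was used. Each is written 5′ to 3′ on the gene's strand and ends at the base before the start. Capitals mark the matches to a TonE core or a CCAAT box on either strand. The windows are chr17:56717700-56717949 on the minus strand for Vmac, chr6:148896238-148896487 on the minus strand for Caprin2 and chr8:47713932-47714181 on the minus strand for Cdkn2aip. They are chr1:51478400-51478649 on the minus strand for Nabp1 and chr2:129198523-129198772 on the plus strand for Slc20a1.
Vmac: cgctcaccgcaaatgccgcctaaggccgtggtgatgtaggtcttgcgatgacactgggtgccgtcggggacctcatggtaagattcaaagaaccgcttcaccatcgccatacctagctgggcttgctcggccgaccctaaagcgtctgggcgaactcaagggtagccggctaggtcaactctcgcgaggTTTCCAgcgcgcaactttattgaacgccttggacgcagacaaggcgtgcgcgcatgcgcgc
Caprin2: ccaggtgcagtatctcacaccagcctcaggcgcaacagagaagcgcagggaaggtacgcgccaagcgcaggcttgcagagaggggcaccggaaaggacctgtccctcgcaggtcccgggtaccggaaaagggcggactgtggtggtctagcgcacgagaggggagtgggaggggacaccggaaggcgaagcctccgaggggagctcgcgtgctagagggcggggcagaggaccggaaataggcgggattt
Cdkn2aip: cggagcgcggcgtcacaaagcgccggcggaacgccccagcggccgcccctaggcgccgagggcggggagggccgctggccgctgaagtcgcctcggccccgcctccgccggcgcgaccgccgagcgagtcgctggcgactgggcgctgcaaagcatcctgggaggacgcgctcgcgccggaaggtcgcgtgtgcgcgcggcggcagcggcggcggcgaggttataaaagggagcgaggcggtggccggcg
Nabp1: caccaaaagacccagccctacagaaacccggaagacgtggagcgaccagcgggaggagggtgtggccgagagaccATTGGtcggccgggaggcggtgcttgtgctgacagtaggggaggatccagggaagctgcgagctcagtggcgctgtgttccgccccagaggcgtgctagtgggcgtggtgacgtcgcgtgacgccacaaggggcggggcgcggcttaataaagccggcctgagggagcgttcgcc
Slc20a1: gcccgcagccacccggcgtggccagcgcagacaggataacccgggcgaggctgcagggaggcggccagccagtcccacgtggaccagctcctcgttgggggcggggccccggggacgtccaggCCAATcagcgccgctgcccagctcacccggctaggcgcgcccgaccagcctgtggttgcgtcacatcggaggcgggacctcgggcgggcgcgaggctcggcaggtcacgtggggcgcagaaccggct

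Only Vmac of the 5 held the TonE core TGGAAA, on the opposite strand, 61 to 56 bases before its start, where the printed strand reads TTTCCA. The same 6 letters occur in 18.6% of all 32841 promoter windows of this length. CCAAT occurred once before Nabp1, on the opposite strand, and once before Slc20a1, and is present in 33.9% of windows. The GC box letters GGGCGG occurred 2 times each before Caprin2, Cdkn2aip, Nabp1 and Slc20a1 and not before Vmac, against 32.7% of windows with at least 1. No window of the 5 held the AP-1 letters TGANTCA (6.75% of all windows), the CRE letters TGACGTCA (1.55%) or the heat shock element pair GAANNTTC (6.7%). All motifs were searched on both strands. The windows were rich in G and C, at 60% for Vmac, 65.6% for Caprin2, 78.0% for Cdkn2aip, 66.4% for Nabp1 and 75.2% for Slc20a1, with a median of 52.4% and quartiles of 45.2% and 61.2% over all windows. Thus 4 of 5 members' windows lay above the upper quartile of G and C over all windows, and no single searched motif was in all 5. Windows of genes expressed in these cells were not compared separately, so GC-rich sequence is not read as particular to the members.

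Vmac, the vimentin-associated gene, was at 26.2 and 16.8 RPKM in the osmotic stress libraries, against 3.22 and 2.27 RPKM in the untreated libraries, in the order of replicates 1 and 2. Heat shock libraries held 2.31 and 2.13 RPKM, and oxidative stress libraries 2.20 and 2.43 RPKM. Both osmotic stress libraries lay above all 6 others, and those 6 lay close together. Within the tables the ratio of osmotic stress to untreated cells was 8.16 and 7.39, the most even pair among the members relative to its size. Its mean exceeded that of 75.6% of the tested rows under osmotic stress, against 33.0% in untreated cells.

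Caprin2, the caprin family gene, was at 14.5 and 9.57 RPKM under osmotic stress, against 1.48 and 1.71 RPKM in untreated cells. After heat shock it stood at 1.60 and 1.83 RPKM, and oxidative stress gave 2.82 and 2.45 RPKM. The osmotic stress values again stood clear of the other 6, and the oxidative stress pair was the next highest. The ratios to untreated cells within the tables were 9.79 and 5.61.

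Slc20a1, the phosphate importer gene and the highest of the 5 in every group, was at 85.0 and 64.7 RPKM under osmotic stress, against 21.5 and 20.7 RPKM in untreated cells. Heat shock gave 14.7 and 16.8 RPKM, and oxidative stress 18.4 and 23.1 RPKM. The osmotic stress libraries were above all others, the heat shock libraries were the lowest 2, and the ratios to untreated cells were 3.94 and 3.14. Its osmotic stress mean, 74.9 ± 14.3 RPKM (SD, n = 2), lay above 93.2% of the tested rows.

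Cdkn2aip, the ARF-binding gene, was at 23.3 and 19.0 RPKM under osmotic stress, against 5.54 and 6.34 RPKM in untreated cells. The heat shock libraries held 9.79 and 9.51 RPKM, and the oxidative stress libraries 5.35 and 5.89 RPKM. The osmotic stress libraries were highest and the heat shock libraries came next, both above all 4 libraries of the remaining groups. Osmotic stress to untreated ratios were 4.20 and 3.0.

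Nabp1, the single-stranded DNA-binding gene, was at 17.4 and 9.58 RPKM under osmotic stress, against 1.99 and 3.45 RPKM in untreated cells. Heat shock libraries were at 0.704 and 2.39 RPKM, and oxidative stress libraries at 2.55 and 3.75 RPKM. The osmotic stress libraries did not overlap the other 6, but the replicates of each group differed more than for any other member. The ratios to untreated cells were 8.73 and 2.78, and the table of replicate 2 thus gave a much smaller difference than that of replicate 1.

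**Figure D1:**
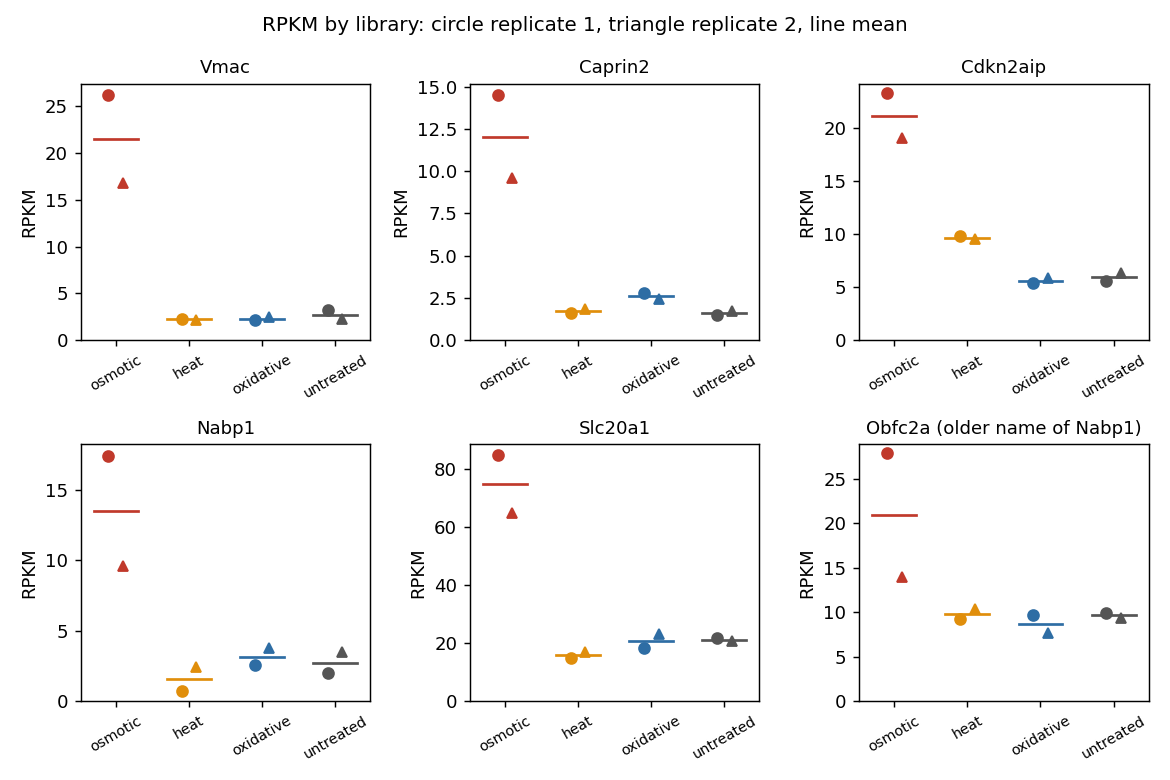
RPKM of each member, and of the row under the older Nabp1 name Obfc2a, in the 8 libraries on a linear axis. Each library is 1 point, with osmotic stress, heat shock, oxidative stress and untreated cells from left to right. In the panels of all 5 members and of Obfc2a both osmotic stress points lie above the other 6. For Cdkn2aip the heat shock points at 9.79 and 9.51 RPKM lie between the osmotic stress points and the rest.

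Of the members, only Nabp1 also has a row under an older name, Obfc2a, and no source used here gives the gene models behind the 2 rows. Obfc2a was at 27.9 and 14.0 RPKM under osmotic stress, against 9.93 and 9.37 RPKM in untreated cells, with ratios of 2.81 and 1.49. Its heat shock libraries were at 9.28 and 10.3 RPKM, and its oxidative stress libraries at 9.69 and 7.62 RPKM. The lower osmotic stress library was thus 1.35 times the highest other library on this row, against 2.56 times on the row named Nabp1. The Nabp1 row held 0.624 and 0.686 of the Obfc2a value under osmotic stress, 0.0759 and 0.231 after heat shock, 0.264 and 0.492 after oxidative stress and 0.201 and 0.368 in untreated cells. The size of the difference for this gene therefore depended on which of its rows was read, and both rows were highest under osmotic stress.

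As differences of log2(RPKM + 0.5), in which low genes change by less than their true ratio, the members' values between osmotic stress and untreated cells were 2.74 (SE 0.25) for Vmac, 2.56 (SE 0.22) for Caprin2, 2.10 (SE 0.49) for Nabp1, 1.79 (SE 0.18) for Slc20a1 and 1.75 (SE 0.15) for Cdkn2aip. Counted from the highest, they stood at places 77, 101, 152, 195 and 202 of 16056 rows. The other Nabp1 row, Obfc2a, was at 1.00. All 5 members were higher in osmotic stress replicate 1, the library that stood apart, than in replicate 2, by 1.22 times for Cdkn2aip to 1.82 times for Nabp1, with a median over tested rows of 1.108 times and 63.8% of rows higher in replicate 1. Without that library the log2 differences were 2.43 for Vmac, 2.27 for Caprin2, 1.68 for Nabp1, 1.60 for Slc20a1 and 1.60 for Cdkn2aip.

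Being higher in both tables is common, and 8388 of the 16056 tested rows, 52.2%, met it. The boundary of the rule is a ratio of 1 in both tables. Among the listed genes, Hspa4l lies just inside it, with ratios of 1.38 and 1.002, and G3bp1 just outside, with 0.976 and 1.02. The members lay further inside: their smaller ratio of the 2 tables was 7.39 for Vmac, 5.61 for Caprin2, 3.14 for Slc20a1, 3.0 for Cdkn2aip and 2.78 for Nabp1, and 179 rows had a smaller ratio above that of Nabp1. At least 2-fold in both tables was met by 386 rows (2.40% of all tested rows), among them the 5 members. Rows at 0 in an untreated library have no such ratio and were left out of the 179 and the 386 rows. There were 243 tested rows at 0 in untreated replicate 1 and 273 in replicate 2, so both counts may be too low. The limma call rate for osmotic stress against untreated cells over all rows was 0.691%, with 69 rows higher (0.43%) and 42 lower (0.262%), and nothing is read from it about the members.

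A second description set the lower osmotic stress library against the highest of the other 6. That ratio was 5.22 for Vmac, 3.40 for Caprin2, 2.81 for Slc20a1, 2.56 for Nabp1 and 1.94 for Cdkn2aip. It was at least 2 in 47 rows, 0.293% of those tested, among them 4 of the 5 members. On the log2(RPKM + 0.5) scale Vmac ranked ninth, with 2.22, and Cdkn2aip, with 0.92, ranked 39 of 16056. Heat shock and oxidative stress libraries, which the rule did not use, lay below both osmotic stress libraries for each member. The ratio also rests on the osmotic stress and untreated libraries that chose the members. A high rank was therefore partly set by that choice and is no test.

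**Figure D2:**
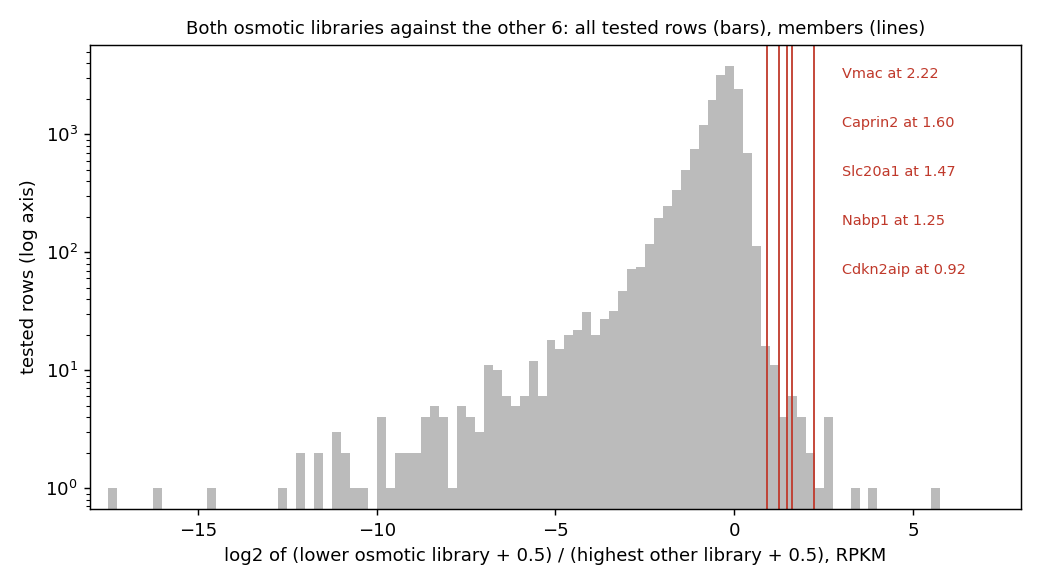
Number of tested rows (log axis) by the log2 ratio of the lower osmotic stress library to the highest of the other 6, with 0.5 RPKM added to each. The lines mark Vmac at 2.22, Caprin2 at 1.60, Slc20a1 at 1.47, Nabp1 at 1.25 and Cdkn2aip at 0.92. All lie in the thin upper tail of the 16056 rows, and the members were chosen on libraries used here.

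Heat shock and oxidative stress ask whether the members also moved under stresses the rule did not use. Both comparisons use the untreated libraries, which the rule also used, and they share these controls with each other. No member passed the test in either comparison with untreated cells, where limma called 6.62% of rows for heat shock (2.54% higher, 4.08% lower) and 1.48% for oxidative stress (1.29% higher, 0.193% lower). With 2 libraries a group the intervals were wide, and an exact permutation test cannot go below p = 0.333.

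For heat shock, Cdkn2aip came nearest, at 0.66 above untreated cells on the log2 scale (SE 0.15, 95% interval 0.29 to 1.03, limma adjusted p = 0.055), and its heat shock libraries were 1.77 and 1.50 times the untreated library of their table. This value passed the threshold under some other scalings, with adjusted p = 0.031 for median-of-ratios and 0.036 for quantile normalization. Slc20a1 was at -0.41 (interval -0.85 to 0.03, limma adjusted p = 0.22), and its heat shock libraries lay below both untreated libraries. Nabp1 was at -0.75 (interval -1.93 to 0.42, adjusted p = 0.39), Vmac at -0.24 (interval -0.84 to 0.36, adjusted p = 0.6) and Caprin2 at 0.08 (interval -0.45 to 0.61, adjusted p = 0.86), by limma. The upper ends of the intervals of the other 4 genes all lay below a log2 change of 1, but the Nabp1 interval reached down to -1.93. Groups that did not overlap, Cdkn2aip higher and Slc20a1 lower, are common in this comparison, at 22% and 35.8% of tested rows.

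For oxidative stress, Caprin2 was at 0.58 above untreated cells on the log2 scale (SE 0.22, interval 0.05 to 1.11, limma adjusted p = 0.25), with both libraries above both untreated ones, as in 18% of tested rows, where 30.1% were lower without overlap. Slc20a1 was at -0.03 (interval -0.48 to 0.41, adjusted p = 0.95) and Cdkn2aip at -0.07 (interval -0.44 to 0.30, adjusted p = 0.85), by limma. Vmac was at -0.19 (interval -0.79 to 0.41, adjusted p = 0.74) and Nabp1 at 0.20 (interval -0.98 to 1.38, adjusted p = 0.87), by limma. The libraries of these 4 genes overlapped those of untreated cells, and the interval of each spanned 0.

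The difference between heat shock and oxidative stress uses none of the libraries behind the rule. Its SE and p come from the 4-group fit, whose estimate of the spread also draws on those libraries. In this comparison 14.2% of rows were called (5.76% higher, 8.4% lower). Of the 5 members 1 passed: Cdkn2aip was higher after heat shock, at 9.79 and 9.51 RPKM, against 5.35 and 5.89 RPKM after oxidative stress (log2 difference 0.73, SE 0.15, interval 0.36 to 1.10, limma adjusted p = 0.03). The groups did not overlap, as for 31.5% of tested rows in this direction. The call was lost when any of the 4 heat shock or oxidative stress libraries was left out (limma adjusted p = 0.084 to 0.16, log2 difference 0.67 to 0.79 over the 8 fits without 1 library), and held without any 1 of the other 4. Scaling each library to the same sum ended it too (1.01, limma adjusted p = 0.42). The call held in a fit of the heat shock and oxidative stress libraries only (limma adjusted p = 0.043). Caprin2 (-0.50, adjusted p = 0.17), Nabp1 (-0.95, adjusted p = 0.23) and Slc20a1 (-0.38, adjusted p = 0.21) were lower after heat shock in both libraries but did not pass in limma, with non-overlap in that direction in 33.5% of tested rows. Vmac was at -0.05 (limma adjusted p = 0.91).

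**Figure D3:**
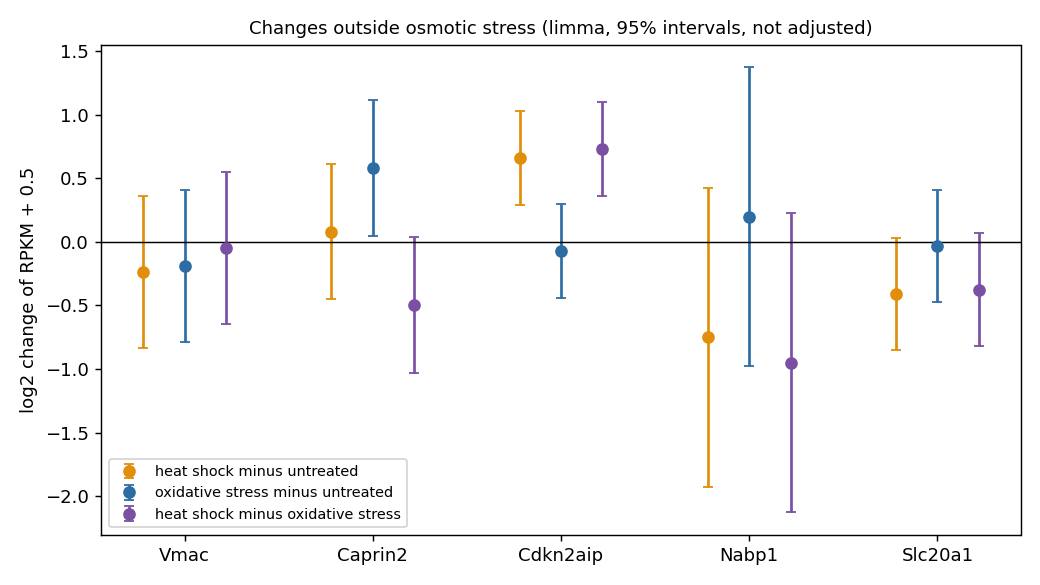
Log2 difference of each gene for heat shock against untreated cells, oxidative stress against untreated cells and heat shock against oxidative stress, with 95% intervals from the limma fit, not adjusted for the number of rows. Cdkn2aip, at 0.73, is the only gene past the threshold, and that in heat shock against oxidative stress.

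Close relatives of 4 members were measured, and none passed the test under osmotic stress, where 0.691% of all tested rows were called. Caprin1, the stress granule relative of Caprin2, was at 129 and 111 RPKM under osmotic stress, against 129 and 128 RPKM in untreated cells (log2 difference -0.10, limma adjusted p = 0.73). Slc20a2, which encodes the second phosphate importer PiT2, was at 21.8 and 14.5 RPKM, against 18.3 and 12.0 RPKM (0.26, limma adjusted p = 0.58). Nabp2, the other single-stranded DNA-binding SOSS subunit gene, was at 4.55 and 4.96 RPKM under osmotic stress, against 5.92 and 4.87 RPKM in untreated cells (-0.16, limma adjusted p = 0.69). Cdkn2aipnl, which shares its XRN2-binding region with Cdkn2aip, was at 46.2 and 33.0 RPKM, against 36.4 and 26.7 RPKM (0.32, limma adjusted p = 0.47). The 4 relatives thus lay between -0.16 and 0.32 on the log2 scale, and their members between 1.75 and 2.56. The members were chosen on these values, so the difference from their relatives was not tested.

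**Figure D4:**
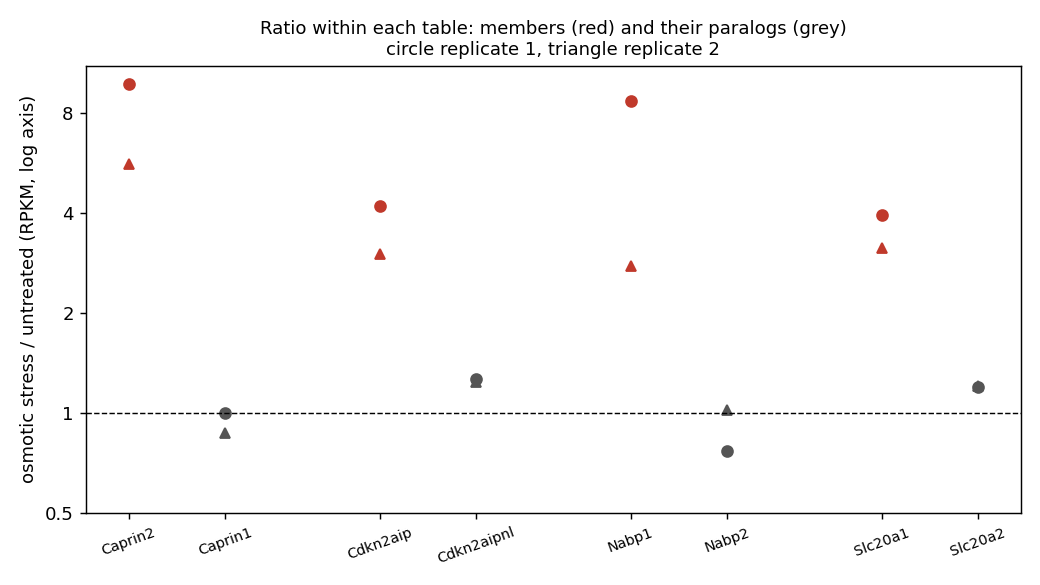
Ratio of osmotic stress to untreated RPKM within each table (log axis), circles for replicate 1 and triangles for replicate 2, for members in red and their relatives in grey. The members range from 2.78 to 9.79, and the relatives from 0.768 to 1.27.

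The partners of the members were read from lists made with earlier results of these data known. Under osmotic stress none of the listed partner genes passed the limma test. Only 0.691% of all tested rows were called in that comparison, so counts of 0 in lists of this size say little. Among 7 tested intermediate filament genes of 12 listed, 0 passed (1 at an unadjusted p under 0.05, median log2 change 0.08, all rows 0.18). Vim, the vimentin gene, was at -0.32 (limma adjusted p = 0.56). All 15 stress granule genes were tested and none passed, also at an unadjusted p (median 0.08). For the ARF, p53 and XRN2 partners of Cdkn2aip, 0 of 8 tested of 9 listed passed (1 unadjusted, median 0.28). Cdkn2a, which encodes ARF and is known to be deleted in NIH3T3 cells, was listed at 0 in all 8 libraries. Xrn2 was at 59.3 and 58.4 RPKM, against 71.5 and 86.0 RPKM in untreated cells (-0.41, limma adjusted p = 0.23). The largest change of this list was that of Mdm4, at 0.69 (limma adjusted p = 0.12), and 7 of the 8 tested genes lay above 0. Among 13 SOSS and RPA genes 0 passed (1 unadjusted, median 0.01), with Ints3 at 0.01 and Inip at -0.07. The largest change among these 13 was that of Nbn, at 0.59 (limma adjusted p = 0.15), and 7 lay above 0. Among 6 tested phosphate transport genes of 9 listed 0 passed, also unadjusted (median 0.25), and the phosphate exporter gene Xpr1 was at -0.11.

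Under the other stresses single partner genes passed the test. Mdm2, the p53 ubiquitin ligase and p53 target, rose after oxidative stress to 409 and 262 RPKM, against 53.5 and 36.8 RPKM in untreated cells (2.87, SE 0.31, limma adjusted p = 0.023). Its call held in 3 of 8 fits without 1 library and was lost without untreated replicate 1 or 2, heat shock replicate 1 or 2 or oxidative stress replicate 1, with a highest adjusted p of 0.14. It was 1 of the 8 ARF, p53 and XRN2 genes to pass (4 unadjusted, median 0.29), against 0 after heat shock (2 unadjusted, median 0.12). Slc25a23, a mitochondrial carrier of ATP-magnesium and phosphate, was called higher under heat shock, as 1 of 6 phosphate transport genes (median 0.19). Its heat shock libraries held 1.16 and 0.777 RPKM, and its untreated libraries 0 and 0.0266 RPKM (1.51, SE 0.21, limma adjusted p = 0.017). Only the heat shock libraries of this row reached 0.5 RPKM. The row was tested through that group alone, so no rise is read from its call. Leaving out either heat shock or either untreated library ended that call (highest adjusted p = 0.12). Des, the desmin gene, fell after heat shock by 0.72 (limma adjusted p = 0.044), as 1 of 7 intermediate filament genes (2 unadjusted, median -0.36), and its call was lost in all 8 fits without 1 library. After oxidative stress none of the intermediate filament (2 unadjusted, median -0.53), SOSS and RPA (2 unadjusted, median -0.25) or phosphate genes (0 unadjusted, median -0.17) passed. No stress granule gene passed after heat shock or oxidative stress (1 unadjusted in each, medians -0.11 and -0.10), nor any SOSS and RPA gene after heat shock (1 unadjusted, median 0.01). For heat shock and oxidative stress the medians of all rows were -0.09 and -0.10, and 6.62% and 1.48% of tested rows were called.

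Genes of the known hyperosmotic response were measured in the same libraries. They were osmolyte transporter and enzyme genes and also Nfat5, Sgk1, Hspa4l and Aqp1. Of 9, none passed the limma test under osmotic stress (1 at an unadjusted p under 0.05, median 0.10). With 0.691% of all tested rows called there, a count of 0 among 9 genes says little. Slc5a3, the myo-inositol transporter gene, was at 31.2 and 38.5 RPKM, against 22.2 and 37.1 RPKM in untreated cells. Akr1b3, the aldose reductase gene, was at 14.7 and 29.99 RPKM, against 12.0 and 20.9 RPKM, and Nfat5 itself at 20.02 and 15.6 RPKM, against 14.0 and 19.4 RPKM. The osmotic stress libraries of these 3 genes overlapped the untreated ones, although Slc5a3 and Akr1b3 were higher within both tables. Slc6a6, the taurine transporter gene, was at 28.6 and 30.1 RPKM under osmotic stress, against 51.6 and 46.2 RPKM in untreated cells (-0.72, limma adjusted p = 0.13). The kinase gene Sgk1 was at 23.6 and 21.2 RPKM, against 20.01 and 13.6 RPKM (0.43, limma adjusted p = 0.26). After heat shock Slc6a6 fell by 1.07 (limma adjusted p = 0.038, 2 unadjusted, median -0.18), a call lost without either heat shock or either untreated library. After oxidative stress 0 of 9 passed (2 unadjusted, median -0.06). Of 10 fibroblast markers, 0 passed under osmotic stress (1 unadjusted, median -0.32), 0 under oxidative stress (2 unadjusted, median -0.53), and Fn1 and Sparc fell under heat shock, by 1.61 and 1.21 (median -0.63). Both calls were lost when any 1 heat shock, oxidative stress or untreated library was left out. Of 5 tested markers of other cell types, 0 passed under osmotic stress (0 unadjusted), and Cd68 and Des fell under heat shock (2 unadjusted). Under oxidative stress Cdh1 was called higher by 1.34 (3 unadjusted), at 1.01 and 0.663 RPKM, against 0.0236 and 0.0235 RPKM in untreated cells. Cdh1, Pecam1 and Tubb3 reached 0.5 RPKM only in the oxidative stress libraries. They were tested through that group alone, so no rise is read from these values. The Cdh1 call was lost in 7 of 8 fits without 1 library, all but the one without oxidative stress replicate 2, and the Cd68 call in 5, those without any heat shock or oxidative stress library or without untreated replicate 1.

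Genes beside the members were looked up in GENCODE M21 on GRCm38, used only for which genes neighbour each other, since the tables rest on mm9. The 18 neighbouring rows were the nearest protein-coding gene with a row on each side and any annotated gene with a row within 25 kb. Genes with no row under their name were left out, among them Sinhcaf, a protein-coding gene 24.8 kb upstream of Caprin2. Of the 18 rows, 10 were tested and 0 passed under osmotic stress (3 at an unadjusted p under 0.05). In that comparison 0.691% of all tested rows were called. Ndufa11, a gene for a complex I subunit that overlaps the start of Vmac on the opposite strand, was at 10.99 and 9.51 RPKM under osmotic stress, against 9.58 and 7.21 RPKM in untreated cells (0.28, limma adjusted p = 0.38). The strand that was counted is not given, so reads of the overlapping stretch may fall to either gene. The same limit holds for Cdkn2aip, overlapped on the opposite strand by E030037K01Rik, and for Slc20a1, overlapped there by Gm4430 and 9830144P21Rik. Ipo8, the next gene downstream of Caprin2 on the same strand, was at 17.0 and 16.9 RPKM, against 17.0 and 15.8 RPKM (0.05, limma adjusted p = 0.9). Ing2, the next protein-coding gene downstream of Cdkn2aip on the same strand, was at 6.97 and 6.86 RPKM, against 5.41 and 4.75 RPKM (0.41, limma adjusted p = 0.15). Chchd5, upstream of Slc20a1, was at 0.55 (limma adjusted p = 0.17). The tested neighbours with the largest differences were AA386476 at -1.08 and the pseudogene Gm7618, upstream of Caprin2, at 0.87 (limma adjusted p = 0.38).

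A neighbour of Slc20a1 was too low to be tested and was also highest under osmotic stress, though its other groups stood in another order. A730036I17Rik, a non-coding RNA gene downstream of Slc20a1 on the same strand, was at 0.314 and 0.267 RPKM under osmotic stress, 0.00581 and 0.0148 after heat shock, 0.151 and 0.0813 after oxidative stress and 0.00731 and 0 in untreated cells. It was singled out after its values were seen. AA386476, a non-coding RNA gene beside Cdkn2aip, was at 1.70 and 1.63 RPKM under osmotic stress, against 4.31 and 3.85 RPKM in untreated cells (-1.08, limma adjusted p = 0.054). It fell after heat shock, at 1.07 and 1.34 RPKM (-1.43, limma adjusted p = 0.012), and that call was lost without either heat shock or either untreated library. Ranbp3, a Ran-binding protein gene beside Vmac, also fell after heat shock (-0.96, limma adjusted p = 0.036), a call lost when any heat shock, oxidative stress or untreated library was left out. Under oxidative stress 0 of the 10 neighbours passed (0 at an unadjusted p under 0.05).

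The members were compared with one another and with 12758 rows of at least 1 RPKM by Pearson's r of log2(RPKM + 0.5) over the 8 libraries, which share group, table and scaling, so r is a description without a p. The rule chose the members for a difference between 4 of these 8 libraries, which largely sets r between members and with other rows. Between members r was highest for Vmac and Slc20a1, at 0.982, and lowest for Cdkn2aip and Nabp1, at 0.703, whose heat shock means lay on opposite sides of the untreated mean. Cdkn2aip with Slc20a1 had 0.828, and Caprin2 had 0.962 with Slc20a1 and 0.958 with Vmac. The rows most like Vmac were Atp5j (0.993), Skp1a (0.988) and Rpl36al (0.987), and those most like Slc20a1 were Psmd7 (0.991), Sub1 (0.991) and Atp5j (0.989). For Cdkn2aip they were Ppp2r3c, Acn9 and Mkks (0.990, 0.990 and 0.989), for Nabp1 Zbtb8os, Herc6 and Atp5l (0.985, 0.984 and 0.983) and for Caprin2 Rpl30-ps8, Gm12306 and C330011M18Rik (0.985, 0.980 and 0.980). Similar in shape, most of those whose values were examined moved less: Atp5j was at 74.4 and 66.1 RPKM under osmotic stress, against 47.4 and 45.6 RPKM in untreated cells. Sub1 was at 192 and 140 RPKM, against 72.6 and 75.2 RPKM.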

How the data were processed

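Nuclear RNA of NIH3T3 cells was sequenced in 8 libraries, 2 for each of 4 groups. Per the labels' protocols, ribosomal RNA was depleted and libraries were strand-specific. Bowtie, SAMtools, Cufflinks and the build mm9 are named in the submitters' processing notes. Versions, annotation, counted strand and filters are not given in the sources. Per the file headers, the authors deposited RPKM per row, in 2 tables of 1 library per group. Counts are not part of the tables. Relative depth, from the most frequent value of olfactory receptor rows between 0.01 and 0.03 RPKM, ranged from 0.974 to 1.11 against untreated cells of the same table, and no counting intervals were made.

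RPKM + 0.5 was log2 transformed, and rows that reached 0.5 RPKM in 2 or more of 8 libraries were tested (16056 of 48676 rows, 44363 distinct names). One 4-group model was fitted in limma 3.58.1 (R 4.3.3) with a mean trend. Calls had a two-sided Benjamini-Hochberg adjusted p under 0.05 over the tested rows. The fit was checked on simulated data. The members, gene lists and rules were chosen with earlier results of these data known. Named genes were the members, the list genes, the nearest protein-coding neighbour with a row on each side and, per member, the 3 rows with the highest correlation. The 25 kb neighbours and the older name of Nabp1 were added later.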

Additional observations from a re-analysis of the deposited data

How the results depend on the processing

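No result changed direction while called. With columns scaled to a common sum, which lowers osmotic stress replicate 1, the osmotic stress differences were 2.11 for Vmac, 1.94 for Caprin2, 1.10 for Cdkn2aip and 1.13 for Slc20a1. Over every alternative run they ranged from 2.11 to 3.06 for Vmac, 1.94 to 2.85 for Caprin2, 1.10 to 1.89 for Cdkn2aip, 1.47 to 2.51 for Nabp1 and 1.13 to 1.99 for Slc20a1. Cdkn2aip in heat shock against oxidative stress was 1.01 with the common sum (limma adjusted p = 0.42) and 0.67 to 0.79 without 1 library. In heat shock against untreated cells it passed with the common sum without the largest row (1.13), median-of-ratios (0.77), quantile normalization (0.69) and the replicate block (0.66, adjusted p = 0.045). The uncalled heat shock values of Slc20a1 and Vmac turned positive with the common sum, at 0.06 and 0.17, which moved the median of all rows to 0.31, against -0.09.

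The number of rows called depended on the setting. For heat shock against oxidative stress, 2273 in the main analysis, it was 577 with the common sum, 3543 without its largest row, 3836 with the replicate block and 107 to 2307 without 1 library. For heat shock against untreated cells, 1063, it was 370, 2175 and 2124 in the same settings, 241 with only the 2 groups and 73 to 1231 without 1 library. For osmotic stress, 111, it was 66 with the common sum without the largest row, 2 with only the 2 groups, 433 with the block and 8 to 777 without 1 library (22 without osmotic stress replicate 1 and 777 without replicate 2). For oxidative stress, 238, it was 375 without the trend, 421 with median-of-ratios, 880 without the filter, 34 with a mean of at least 1 RPKM, 77 without both osmotic stress libraries, 5 with only the 2 groups, 412 with the block and 11 to 229 without 1 library. Scaling also moved the split of higher and lower calls. For heat shock against untreated cells it was 408 and 655, but 817 and 619 with median-of-ratios, 708 and 565 with quantile normalization, 307 and 63 with the common sum and 2027 and 148 without its largest row. For heat shock against oxidative stress it was 925 and 1348, but 2822 and 721 with the common sum without its largest row and 1495 and 1450 with quantile normalization. For osmotic stress it was 69 and 42, but 49 and 87 with median-of-ratios, 57 and 81 with quantile normalization and 68 and 83 with the common sum. The cause of these shifts was not tested. The r of replicate differences between groups was over 0.1 in 5 of 6 pairs of groups and 0.0624 in the other (highest 0.264), and no label says what a number marks, so the block is not read as a pairing. Of the remaining values for list genes, 383 stayed within 1.5 times and 89 moved beyond it. The heat shock calls of Des, Slc6a6, Fn1, Sparc, Cd68, Ranbp3 and AA386476 were lost with the common sum, and no list gene or neighbour named as called changed sign under any alternative. Under osmotic stress the list counts stayed at 0 in every alternative, except for 1 fibroblast marker with the block. Depth per library is unknown, which limits low rows such as A730036I17Rik.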

Other observations

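Gm12306, a row whose pattern was among the 3 most like Caprin2, was at 44.9 and 23.2 RPKM under osmotic stress, 0.266 and 0.678 RPKM after heat shock, 3.08 and 0.632 RPKM after oxidative stress and 0 in both untreated libraries. Gm7618, a pseudogene beside Caprin2, was listed at the same 0.266 and 0.678 RPKM after heat shock, at 0 and 1.16 RPKM under osmotic stress and at 0 in the other 4 libraries. Rows with near-identical copies can share reads, so both are uncertain.

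The Nabp1 row held a larger fraction of the Obfc2a value in replicate 2 than in replicate 1 in each of the 4 groups.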
